A study of Homo sapiens with 4 samples.

Results

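The gene set described here holds 44 genes of homologous recombination and the Fanconi anemia pathway. They were chosen by name from known function, with earlier results of these data known. All were found among the 56655 gene symbols of the count tables. Their mRNA was measured by poly(A)-selected RNA-seq in OVCAR5 ovarian cancer cells, a line derived from ascites and labelled high grade serous. The cells were stably transduced with lentivirus, carrying a control shRNA (shCtrl, 2 libraries) or an shRNA against FOXK2 (shFOXK2, 2 libraries), and both groups went through puromycin selection. The duplicates are labelled biological, but the labels do not say whether they came from separate transductions, so the P values measure the spread between these 4 samples, which may be partly technical. A single hairpin against FOXK2 was sequenced, so an effect of FOXK2 loss and an effect of that hairpin or of the selected population cannot be told apart.

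Homologous recombination repairs broken DNA by copying the sister chromatid: nucleases and helicases resect the broken end, the BRCA complex and the strand-exchange paralogs prepare the exposed strand to invade the sister chromatid, and nucleases resolve the joined molecules. The Fanconi anemia proteins recognize DNA crosslinks, ubiquitinate FANCI and FANCD2 and pass the lesion to the same recombination machinery. Ovarian cancers with defects in this pathway are known for their sensitivity to platinum drugs and PARP inhibitors, and many of its genes are transcribed mainly in S and G2 phase.

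The libraries held 21950873 and 16804525 counts in the controls and 14284005 and 17733407 in shFOXK2, and 16417 genes passed the filter on low counts. Levels are given in CPM, counts scaled to the size of each library after TMM normalization, as mean ± SD with n = 2 per group, and differences as log2 fold changes, shFOXK2 over shCtrl, with the SE and the Benjamini-Hochberg adjusted P over all tested genes from edgeR's quasi-likelihood F test. A gene was called when that P was below 0.05. FOXK2, the targeted gene, had 1796 and 1499 counts in the controls against 1086 and 1084 in shFOXK2, and its CPM was 80.5 and 93.4 against 76.4 and 59.6. Its level was 86.9 ± 9.10 CPM in shCtrl and 68.0 ± 11.9 CPM in shFOXK2, and the difference did not pass the test (log2 fold change -0.36, SE 0.25, edgeR adjusted P = 0.257). By other assays, qRT-PCR and Western blot, the paper reports less FOXK2 mRNA and protein in OVCAR5 cells carrying shRNAs against FOXK2. Of the epithelial markers, EPCAM, KRT8, KRT18 and KRT19 had at least 1142 counts in every library and were not called, while CDH1 fell from 459 and 260 counts to 13 and 24. The serous markers WT1, ESR1 and SOX17 had at most 3 counts in any library, PAX8 fell (log2 fold change -0.88, edgeR adjusted P = 0.0263) and MUC16 fell from 397 and 145 counts to 0 and 8.

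Most recombination and Fanconi genes were higher in shFOXK2. Of 43 tested members, 30 rose (69.8%), 1 fell (TP53BP1, 2.33%) and 12 were not called. In the background of all tested genes, 25.7% were called higher and 22.7% lower. The median log2 fold change of the members was 1.37, against 0.04 over all tested genes. Among the 30 members that rose, 11 were at least 4-fold higher. The share past 4-fold was 25.6% of members and 10.5% of all tested genes. With any 1 library left out, 28 to 30 members rose and 1 fell, beside 24.1%, 19.4%, 24% and 21.2% of all tested genes called higher and 20.3%, 20.2%, 19.5% and 19.3% called lower without shCtrl replicates 1 and 2 and shFOXK2 replicates 1 and 2 in turn. Against a change of 2-fold (edgeR glmTreat), 16 members rose and 0 fell (1 at an unadjusted P below 0.05, TP53BP1, with an adjusted P of 0.108), beside 12.5% and 8.1% of all tested genes. The remaining member, ATRIP, the partner of the kinase ATR, had 3 and 5 counts in the controls and 3 and 3 in shFOXK2 and was not tested. In bulk samples, fewer cells of a type or cell cycle phase and less RNA per cell cannot be told apart.

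Both shFOXK2 libraries lay above both shCtrl libraries for 36 members and below both for 2 members, TP53BP1 and FANCF, and the ranges overlapped for 5. Over all tested genes, 39.2% lay wholly above and 36.2% wholly below. Summed over the members, the level was 1224 and 1215 CPM in shCtrl and 2542 and 2447 CPM in shFOXK2. The median log2 ratio of the members was 1.17 and 1.61 for shFOXK2 replicate 1 over shCtrl replicates 1 and 2, and 1.15 and 1.48 for shFOXK2 replicate 2 over the same controls. With 2 libraries against 2, an exact permutation test of any single value could not go below P = 0.333, so the calls rest on the spread shared across genes in the edgeR fit.

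**Figure D1:**
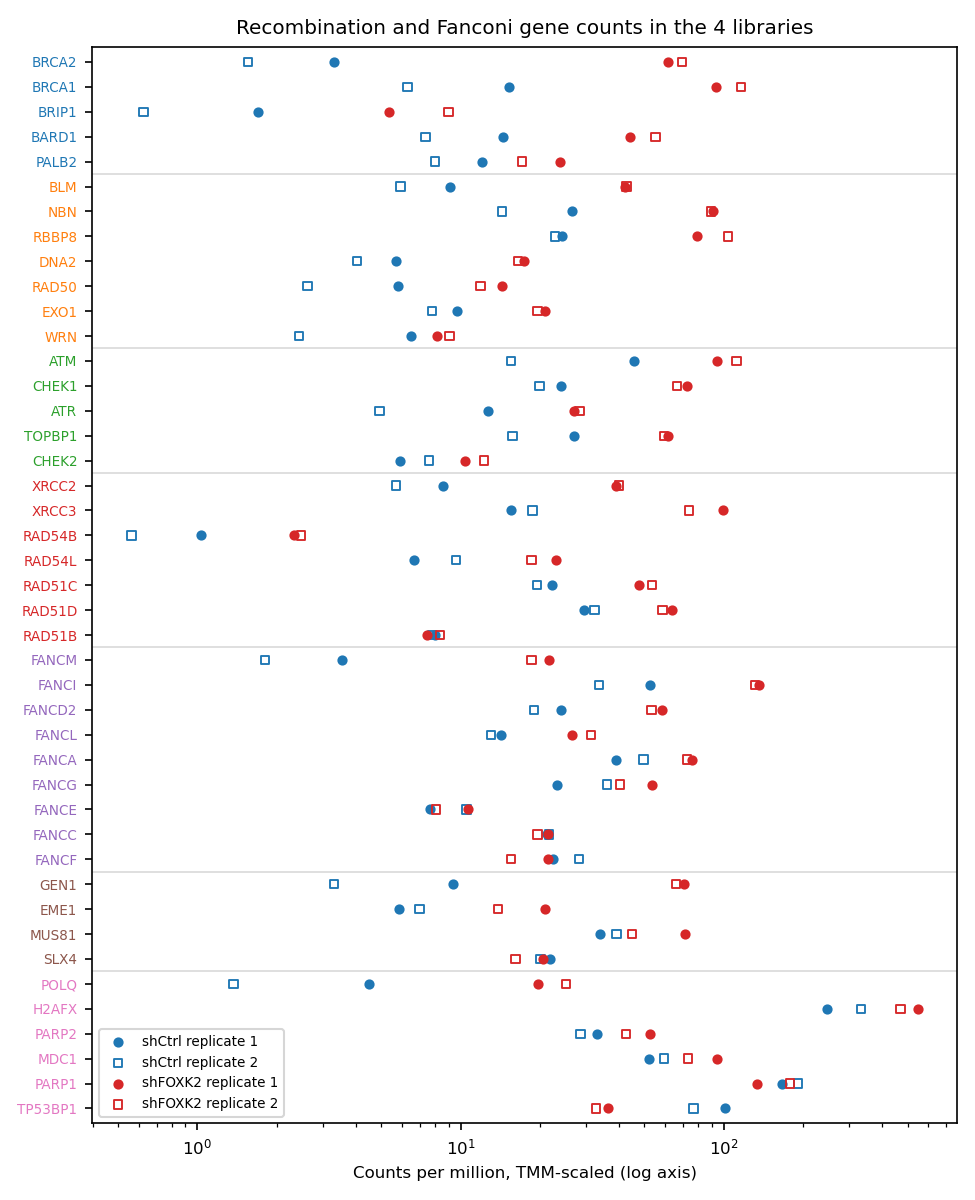
Each row is a member gene and each point its level in 1 of the 4 libraries, as TMM-scaled CPM on a log axis, with genes grouped and coloured by role (from top: BRCA complex, end resection and helicases, kinases and checkpoint, strand-exchange paralogs and RAD54, Fanconi genes, junction nucleases, end choice with PARP and chromatin). In 36 of 43 rows both shFOXK2 points lie to the right of both shCtrl points, and in the BRCA2, GEN1 and POLQ rows the shCtrl points themselves are far apart.

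The members' transcripts differ widely in base composition, and this moved with the result. The A content of the canonical transcript (GENCODE v44, hg38) had a median of 29.4% over the tested members and 25.96% over 14513 tested genes with a value. It ran from 15.9% in H2AFX to 35.6% in BRCA2. As examples of sequence, 6 members were picked, all of them called higher. For each, the window of 60 coding bases with the highest A content is printed. The bases run 5′ to 3′ along the mRNA, with runs of at least 3 A in capitals. The RAD50 window (exon 17, chr5:132608666-132608725, plus strand) holds 65.0% A, FANCM (exon 14, chr14:45175310-45175369, plus strand) 61.7%, POLQ (exon 16, chr3:121489014-121489073, minus strand) 58.3% and GEN1 (exon 13, chr2:17780061-17780120, plus strand) 48.3%. XRCC3 (exon 5, chr14:103708600-103708659, minus strand) and H2AFX (exon 1, chr11:119095120-119095179, minus strand) are the contrast, with 20 and 18 A among the 60 bases of their most A-rich windows. These examples do not show that the windows follow the fold change. WRN (53.3%), SLX4 (51.7%), PARP1 and MDC1, which were not called, had more A-rich windows than GEN1. So did TP53BP1, which fell, whereas XRCC2, which rose, had 43.3%. The window of MUS81, which was not called, held 18 A, as in H2AFX.
RAD50: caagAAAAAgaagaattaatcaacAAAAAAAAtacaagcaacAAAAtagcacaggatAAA
FANCM: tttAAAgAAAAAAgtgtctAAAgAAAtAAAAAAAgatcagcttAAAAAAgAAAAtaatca
POLQ: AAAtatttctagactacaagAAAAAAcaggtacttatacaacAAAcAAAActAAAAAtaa
GEN1: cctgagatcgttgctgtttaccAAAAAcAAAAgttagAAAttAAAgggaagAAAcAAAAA
XRCC3: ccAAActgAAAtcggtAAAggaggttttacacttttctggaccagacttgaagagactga
H2AFX: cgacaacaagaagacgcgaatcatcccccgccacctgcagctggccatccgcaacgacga

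Across the 43 tested members, the log2 fold change and the A content had a Spearman rho of 0.67, and over all tested genes with a value the rho was 0.33 (n = 14513). These are correlations across genes that share the same 4 libraries, given as a description. Among all genes with an A content of 34% or more, 76.6% were called higher with a median log2 fold change of 1.93, whereas among genes under 22% A 14.5% were called higher with a median of -0.30. The 2 members in the top class, BRCA2 and RBBP8, had a median of 3.34, and the 6 members in the bottom class, which include XRCC3, FANCA and H2AFX, a median of 0.71. In the class of 26 to 30% A, 6 of 12 members rose against 18.5% of genes, with medians of 1.02 and -0.05. In every class the members' median lay above that of the genes of like composition.

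A content also separated the 2 control libraries. The log2 ratio of shCtrl replicate 1 over shCtrl replicate 2 had a Spearman rho of 0.76 with A content over the members (n = 43) and 0.62 over all tested genes with a value (n = 14379). Its median was 0.32 over the members and -0.04 over all genes. It was 1.71 for POLQ, 1.55 for ATM, 1.498 for GEN1 and 1.45 for BRIP1, but -0.52 for RAD54L and -0.43 for H2AFX. The ratio of shFOXK2 replicate 1 over replicate 2 ran the other way, with a rho of -0.49 over the members. When a smooth trend of each library on A content was taken out before the test, the members' median log2 fold change was 1.05, with 30 called higher and 1 lower, against 28.3% and 22.7% of all tested genes in the same fit. All 43 members had an A content, as did 14513 of the 16417 tested genes, and the other genes received no offset. Of these 30 members, 26 were also called without the offset. PALB2, RAD50, RAD54B and RBBP8 were no longer called, and CHEK2, FANCG, MDC1 and MUS81 were called in their place. The rho of the fold change with A content was then 0.16. RNA integrity had no direct measure in the files used here, and its part in these values was not tested.

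**Figure D2:**
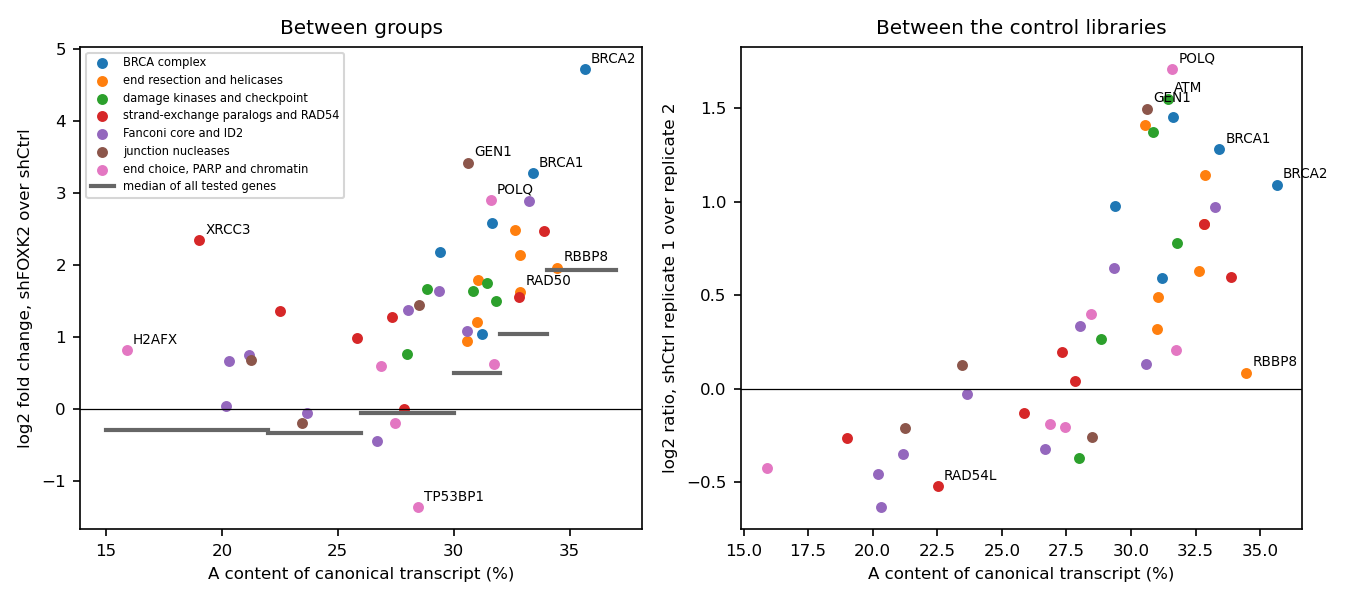
Each point is a tested member, coloured by role and placed by the A content of its canonical transcript (%) against its log2 fold change of shFOXK2 over shCtrl (panel titled Between groups, where grey bars give the median of all tested genes in each A-content class) or against the log2 ratio of shCtrl replicate 1 over replicate 2 (panel titled Between the control libraries). Both the fold change (rho 0.67) and the control replicate ratio (rho 0.76) climb with A content over the 43 members.

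The BRCA complex rose as a whole, with all 5 members called and a median log2 fold change of 2.58. BRCA2, which acts on resected DNA ahead of strand exchange (chr13:32315086-32400268, plus strand), had 74 and 25 counts in the controls and 876 and 1266 in shFOXK2. It went from 2.44 ± 1.24 to 65.6 ± 5.63 CPM, the steepest rise of any member (log2 fold change 4.72, SE 0.37, 26.3-fold, edgeR adjusted P = 1.44e-06). BRCA1, a ubiquitin ligase of the pathway (chr17:43044295-43170245, minus strand), had 341 and 101 counts in the controls and 1331 and 2124 in shFOXK2. It went from 10.8 ± 6.36 to 105 ± 16.3 CPM (log2 fold change 3.27, SE 0.37, edgeR adjusted P = 2.3e-05). In both genes the lower shFOXK2 library stood several fold above the higher shCtrl library. BARD1, the obligate partner of BRCA1, had 323 and 118 counts in the controls and 629 and 1001 in shFOXK2 (log2 fold change 2.18, SE 0.33, edgeR adjusted P = 0.000177). BRIP1, a helicase that binds BRCA1, was scarce, with 38 and 10 counts in the controls and 76 and 164 in shFOXK2 (log2 fold change 2.58, SE 0.46, edgeR adjusted P = 0.000581). PALB2, which joins BRCA1 to BRCA2, had 268 and 128 counts against 341 and 312, the smallest rise of the group (log2 fold change 1.03, SE 0.32, edgeR adjusted P = 0.0155).

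The size of these rises depended on the control library. Without shCtrl replicate 1 the log2 fold change was 5.35 for BRCA2, 4.03 for BRCA1 and 3.48 for BRIP1, each over 1.5 times the fold from all 4 libraries. PALB2 lost its call without shCtrl replicate 2 (log2 fold change 0.70, edgeR adjusted P = 0.105) and without shFOXK2 replicate 1 (0.75, edgeR adjusted P = 0.0905). With the A-content offset the log2 fold change was 2.81 for BRCA2 (edgeR adjusted P = 9.19e-05), 2.04 for BRCA1 (0.000358), 2.05 for BARD1 (0.00031) and 1.88 for BRIP1 (0.00424), and PALB2 was not called at 0.44 (0.181). With an offset for GC content instead, BARD1 stood at 1.48 (edgeR adjusted P = 0.000492), BRCA2 at 3.83 (1.07e-05) and BRIP1 at 1.92 (0.0029). Per kilobase of canonical transcript, the level went from 0.204 to 5.49 CPM for BRCA2, from 1.52 to 14.8 for BRCA1 and from 1.99 to 9.05 for BARD1.

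**Figure D3:**
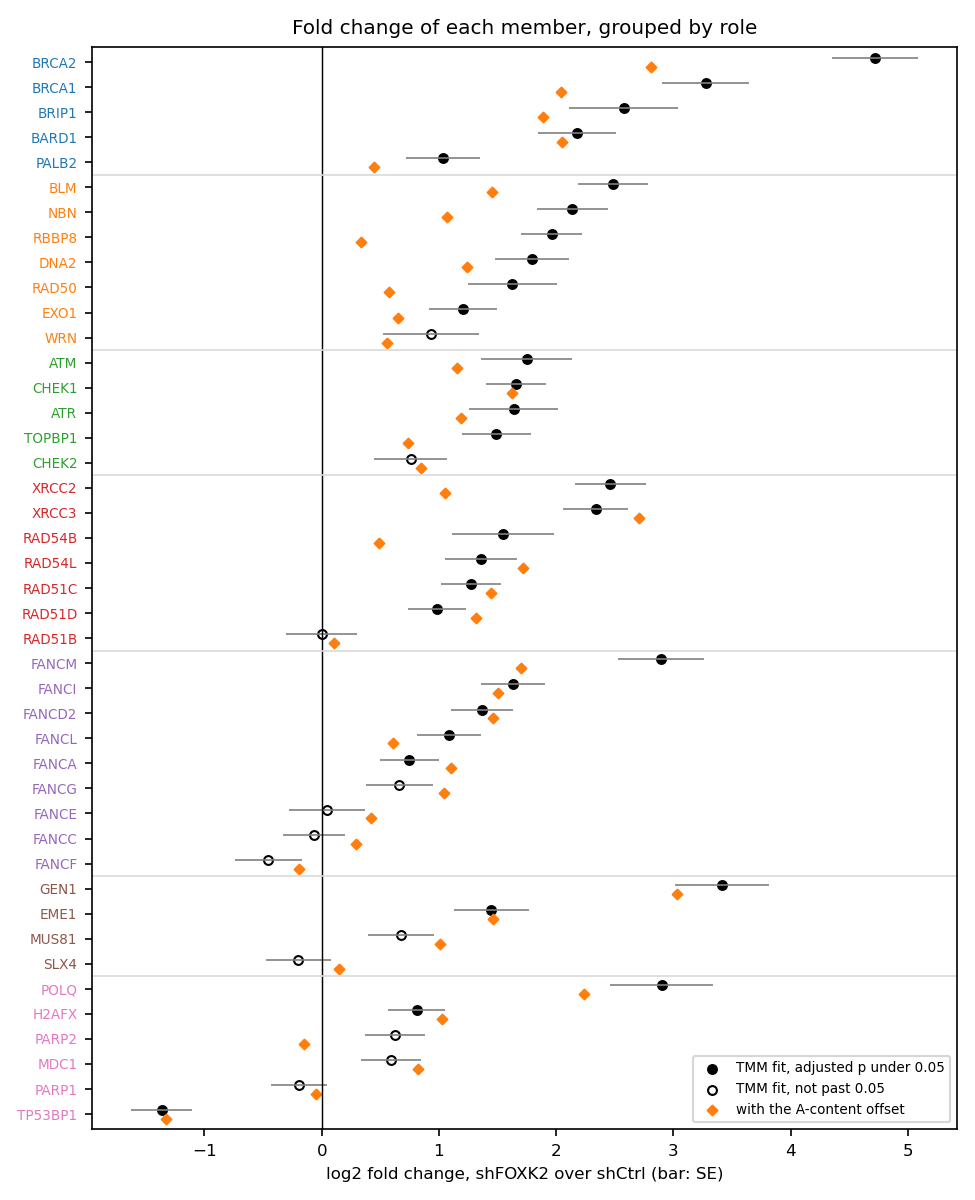
Each point is a tested member's log2 fold change of shFOXK2 over shCtrl from the edgeR fit, with a bar of 1 SE on each side (filled where the adjusted P was below 0.05, open where not), an orange diamond for the value with the A-content offset, and genes grouped by role. All 5 BRCA complex members lie to the right of 0, TP53BP1 is the called member on the left, and the open points run from FANCF at -0.45 to WRN at 0.94.

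End resection turns a blunt break into the single strand that recombination needs, and 6 of its 7 members rose, with a median log2 fold change of 1.79. BLM, the helicase missing in Bloom syndrome, had 204 and 95 counts in the controls and 598 and 778 in shFOXK2, or 7.53 ± 2.28 and 42.4 ± 0.50 CPM (log2 fold change 2.49, SE 0.30, edgeR adjusted P = 3.52e-05). NBN, the signalling subunit of the MRE11-RAD50-NBN end sensor, had 591 and 231 counts against 1295 and 1631 (log2 fold change 2.14, SE 0.31, edgeR adjusted P = 0.000112). RBBP8, which encodes CtIP, the factor that starts resection, had 540 and 366 counts against 1130 and 1886 (log2 fold change 1.96, SE 0.26, edgeR adjusted P = 6.99e-05). Unlike most A-rich members, RBBP8 was alike in the control libraries, at 23.5 ± 0.99 CPM. DNA2, a nuclease of long-range resection, had 127 and 65 counts against 248 and 301 (log2 fold change 1.79, SE 0.32, edgeR adjusted P = 0.000503). EXO1, the other long-range nuclease, had 217 and 125 counts against 298 and 357 (log2 fold change 1.21, SE 0.29, edgeR adjusted P = 0.00388). RAD50, the ATPase of the end sensor (chr5:132556019-132646349, plus strand), had 129 and 42 counts against 204 and 217 (log2 fold change 1.63, SE 0.38, edgeR adjusted P = 0.00322). For these 6 genes both shFOXK2 libraries lay above both shCtrl libraries, as they did for 39.2% of all tested genes.

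WRN, the Werner syndrome helicase, was the member of this group that was not called, with a log2 fold change of 0.94 (SE 0.41, edgeR adjusted P = 0.0737). Its control libraries differed by 1.41 on the log2 scale, and without shCtrl replicate 1 it was called (log2 fold change 1.79, edgeR adjusted P = 0.00138), as it was without shFOXK2 replicate 1 (0.98, edgeR adjusted P = 0.0223). RAD50 rose by 2.29 on the log2 scale without shCtrl replicate 1. With the A-content offset, 4 of the 7 were called and the group's median was 0.65: BLM stood at 1.45 (edgeR adjusted P = 0.000577), NBN at 1.07 (0.00232), DNA2 at 1.24 (0.00296) and EXO1 at 0.65 (0.0394), whereas RAD50, whose window above is the most A-rich of all members, stood at 0.57 (0.146) and RBBP8 at 0.33 (0.187). EXO1 lost its call when the replicate block was added to that offset, and with a GC-content offset NBN stood at 1.32 (edgeR adjusted P = 0.000478) and DNA2 at 1.07 (0.00481). A readthrough gene model covers 91.0% of the RAD50 exons on the same strand, so the RAD50 counts also depend on how the authors' counting split reads between them.

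The kinases that signal DNA damage and their checkpoint partners rose in 4 of 5 tested cases, with a median log2 fold change of 1.64. ATM, the kinase activated by DNA breaks, had 1014 and 249 counts in the controls and 1336 and 2036 in shFOXK2, or 30.5 ± 21.2 and 103 ± 12.7 CPM (log2 fold change 1.75, SE 0.39, edgeR adjusted P = 0.00235). The 2 control libraries of ATM were farther apart than its shFOXK2 libraries. ATR, the kinase of stalled replication forks, had 284 and 79 counts against 385 and 515 (log2 fold change 1.64, SE 0.38, edgeR adjusted P = 0.00307). TOPBP1, which activates ATR, had 603 and 253 counts against 871 and 1081 (log2 fold change 1.49, SE 0.29, edgeR adjusted P = 0.00106). CHEK1, the checkpoint kinase downstream of ATR, had 535 and 320 counts against 1028 and 1207 (log2 fold change 1.66, SE 0.26, edgeR adjusted P = 0.000209). CHEK2, the kinase downstream of ATM, which has pseudogene copies that may share its reads, was not called at 0.76 (SE 0.31, edgeR adjusted P = 0.06).

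CHEK1, at 28.8% A, was hardly changed by the A-content offset (log2 fold change 1.62, edgeR adjusted P = 0.00025), and all 5 tested members of this group were called under it, including CHEK2 at 0.85 (0.0272) and TOPBP1 at 0.74 (0.0117), down from 1.49. ATM and ATR depended on the controls in both directions. ATM stood at 2.69 without shCtrl replicate 1 and at 1.10 without shCtrl replicate 2, and ATR at 2.46 and 1.05, with every one of these values called. Their values with the offset were 1.16 for ATM (edgeR adjusted P = 0.00959) and 1.19 for ATR (0.00767).

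The strand-exchange paralogs (RAD51B, RAD51C, RAD51D, XRCC2 and XRCC3) and the RAD54 motor proteins, which drive strand exchange, rose in 6 of 7 cases, with a median log2 fold change of 1.36. XRCC3 (chr14:103697609-103715504, minus strand) had 348 and 301 counts in the controls and 1416 and 1343 in shFOXK2, or 17.2 ± 2.23 and 86.7 ± 18.2 CPM (log2 fold change 2.34, SE 0.28, edgeR adjusted P = 2.96e-05). With 19.01% A it is among the A-poor members, and its value with the offset was 2.71 (edgeR adjusted P = 4.78e-05). XRCC2 had 191 and 91 counts against 552 and 728 (log2 fold change 2.46, SE 0.30, edgeR adjusted P = 3.74e-05), and with the offset 1.05 (0.00293). RAD51C, the paralog shared by both paralog complexes, had 498 and 313 counts against 680 and 970 (log2 fold change 1.27, SE 0.26, edgeR adjusted P = 0.00129). RAD54L, which encodes RAD54, had 149 and 154 counts against 328 and 339 (log2 fold change 1.36, SE 0.31, edgeR adjusted P = 0.00267). RAD54B was scarce, with 23 and 9 counts against 33 and 45 (log2 fold change 1.55, SE 0.44, edgeR adjusted P = 0.0101). Its call was lost without shCtrl replicate 2 (1.14, edgeR adjusted P = 0.133), with DESeq2 (1.498, adjusted P = 0.0866), with the A-content offset (0.49, edgeR adjusted P = 0.321) and with the GC-content offset (0.82, edgeR adjusted P = 0.0951). A share of 65.5% of its exons is also covered on the same strand by FSBP.

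RAD51D rose just under 2-fold, from 30.9 ± 1.99 to 61.1 ± 3.49 CPM (edgeR adjusted P = 0.00539), and stood at 1.31 on the log2 scale with the offset (edgeR adjusted P = 0.000517). RAD51B was the member closest to no difference, at 7.91 ± 0.17 CPM in shCtrl and 7.90 ± 0.64 CPM in shFOXK2, with a log2 fold change of 0.00 (SE 0.31) whose sign differed between settings. Its members differed between the control libraries in both directions, from 0.88 for RAD54B and 0.60 for XRCC2 to -0.52 for RAD54L on the log2 scale of shCtrl replicate 1 over replicate 2. The median of the group with the offset was 1.31 with 5 called higher.

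The Fanconi genes were mixed. Of the 9 members, 5 rose and 4 were not called, with a median log2 fold change of 0.75. FANCM, the translocase that anchors the core complex to DNA, had 79 and 29 counts in the controls and 309 and 339 in shFOXK2, or 2.67 ± 1.23 and 20.2 ± 2.19 CPM (log2 fold change 2.89, SE 0.37, edgeR adjusted P = 4.76e-05). FANCI had 1172 and 540 counts against 1935 and 2395 (log2 fold change 1.63, SE 0.27, edgeR adjusted P = 0.00032). FANCD2, the partner of FANCI in the ubiquitinated clamp, had 537 and 306 counts against 827 and 969 (log2 fold change 1.37, SE 0.26, edgeR adjusted P = 0.000889), with pseudogene copies that may share its reads. FANCL, the ubiquitin ligase subunit that modifies them, had 318 and 209 counts against 378 and 569 (log2 fold change 1.08, SE 0.27, edgeR adjusted P = 0.00521). Both shFOXK2 libraries were above both controls for each of these 4, as they were for 39.2% of all tested genes. Of the scaffold subunits of the core complex, FANCA was called.

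FANCA went from 44.3 ± 7.55 to 74.2 ± 2.49 CPM (log2 fold change 0.75, SE 0.25, edgeR adjusted P = 0.0255). It lost its call when shCtrl replicate 1 was left out (0.55, edgeR adjusted P = 0.142), when shFOXK2 replicate 1 was (0.69, edgeR adjusted P = 0.106) and when shFOXK2 replicate 2 was (0.75, edgeR adjusted P = 0.0885). The other scaffold subunits had log2 fold changes of 0.66 for FANCG (edgeR adjusted P = 0.0728), 0.05 for FANCE (0.923), -0.07 for FANCC (0.862) and -0.45 for FANCF (0.205), and the signs of FANCE and FANCC differed between settings. FANCG was called without shCtrl replicate 2 (0.94, edgeR adjusted P = 0.0137). With the A-content offset FANCD2 and FANCI were nearly unchanged at 1.46 (edgeR adjusted P = 0.00046) and 1.503 (0.000332), FANCM stood at 1.70 (0.00137), FANCA at 1.10 (0.00101) and FANCL at 0.61 (0.0421). FANCL was not called with a GC-content offset (0.52, edgeR adjusted P = 0.0748), under which FANCM stood at 2.18 (0.00023). Under the offset 6 of the 9 were called higher, the additional gene being FANCG at 1.05 (0.00293).

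Among the nucleases that cut joined DNA molecules, GEN1 and EME1 rose and MUS81 and SLX4 were not called. GEN1, the Holliday junction resolvase (chr2:17753858-17788946, plus strand), had 208 and 53 counts in the controls and 1007 and 1198 in shFOXK2, or 6.31 ± 4.26 and 68.3 ± 3.52 CPM (log2 fold change 3.42, SE 0.40, 10.7-fold, edgeR adjusted P = 2.75e-05). Its controls differed by 1.498 on the log2 scale, and its value was 4.33 without shCtrl replicate 1 and 2.80 without shCtrl replicate 2. With the A-content offset it was 3.03 (edgeR adjusted P = 0.000141). The neighbouring gene SMC6, whose exons overlap 1.08% of the GEN1 exons on the other strand, had 526 and 234 counts against 2697 and 4283 (log2 fold change 3.47, edgeR adjusted P = 2.77e-06). EME1, the partner of MUS81, had 130 and 112 counts against 299 and 253 (log2 fold change 1.45, SE 0.32, edgeR adjusted P = 0.00235). The nuclease MUS81 itself had a log2 fold change of 0.67 (edgeR adjusted P = 0.0626), which was called without shFOXK2 replicate 2 (0.94, edgeR adjusted P = 0.0293), and the scaffold SLX4 one of -0.20 (0.578), which was 0.15 with the offset.

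Of the 6 members of end choice, PARP and chromatin, 2 rose, 1 fell and 3 were not called. The end choice genes TP53BP1 and POLQ moved in opposite directions. TP53BP1, whose product 53BP1 shields ends from resection and opposes BRCA1 (chr15:43403061-43510728, minus strand), was the only member that fell. It had 2260 and 1234 counts in the controls and 518 and 596 in shFOXK2, or 89.1 ± 17.3 and 34.6 ± 2.60 CPM (log2 fold change -1.37, SE 0.26, edgeR adjusted P = 0.00081). The value was -1.33 with the A-content offset (edgeR adjusted P = 0.000609) and between -1.62 and -1.19 with any 1 library left out. TUBGCP4 overlaps 36.0% of its exons on the other strand, and had a log2 fold change of 0.03 (edgeR adjusted P = 0.928). POLQ, the polymerase of microhomology-mediated joining (chr3:121431431-121545988, minus strand), had 100 and 22 counts in the controls and 279 and 457 in shFOXK2, or 2.93 ± 2.20 and 22.4 ± 3.88 CPM (log2 fold change 2.90, SE 0.44, edgeR adjusted P = 0.000174). Its value was 3.99 without shCtrl replicate 1, 2.24 without shCtrl replicate 2 and 2.24 with the offset.

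The PARP enzymes, the targets of PARP inhibitors, were not called. PARP1 had 3713 and 3075 counts in the controls and 1907 and 3251 in shFOXK2, or 179 ± 17.8 and 156 ± 31.5 CPM, and the ranges overlapped (log2 fold change -0.20, SE 0.24, edgeR adjusted P = 0.529, and 0.07 with a GC-content offset). PARP2 had a log2 fold change of 0.63 (SE 0.26, edgeR adjusted P = 0.0596), which was -0.16 with the A-content offset (0.584). H2AFX, now H2AX, the histone phosphorylated around breaks, rose from 290 ± 60.2 to 508 ± 54.0 CPM (log2 fold change 0.81, SE 0.24, edgeR adjusted P = 0.0143). It was not called without shCtrl replicate 1 (0.58, edgeR adjusted P = 0.0981) or without shFOXK2 replicate 1 (0.67, edgeR adjusted P = 0.0767). MDC1, which binds that histone mark, had a log2 fold change of 0.59 (edgeR adjusted P = 0.0675) and was called with the offset at 0.82 (0.00771). Per kilobase of transcript H2AFX was the most abundant member named here, at 182 CPM in shCtrl and 319 in shFOXK2, against 45.0 and 39.3 for PARP1.

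Several called members share exonic sequence with a gene on the other strand, and the strand setting of the counting is not given in the sources used here, so their reads may be counted as ambiguous or shared. KLC1 overlaps 34.2% of the XRCC3 exons and had a log2 fold change of 0.72 (edgeR adjusted P = 0.0257). ZNF276 overlaps 27.4% of FANCA (0.84, edgeR adjusted P = 0.023) and VRK2 27.3% of FANCL (0.96, edgeR adjusted P = 0.0199). LRRC41 overlaps 26.2% of RAD54L and fell (log2 fold change -1.33, edgeR adjusted P = 0.00104), with 2024 and 1846 counts in the controls and 654 and 655 in shFOXK2, while RAD54L rose. LRRC59 overlaps 23.2% of EME1, with a value of -0.54 (edgeR adjusted P = 0.0787).

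Promoter windows of 250 bases before to 50 after the start were matched for 39 members (RefSeq, GRCh38.p14) and searched on both strands, beside the 35116 windows of the whole table. For each member the window nearest its canonical start was used. That window lay 17484 bases away for TP53BP1, 3762 for RAD51B and 1061 for CHEK1, and TP53BP1 and CHEK1 are among the CCAAT matches below. The FOXK motif TGTTTAC was in 0 of 39 member windows and in 3.42% of all windows. Its shorter core TGTTTA was in 2 member windows (5.13%, BRIP1 and ATRIP) against 12.3%. The E2F motif, searched as TTTCGCGC or TTTGGCGC, was in 3 (7.69%, EXO1, TOPBP1 and FANCC) against 1.15%. The cell cycle motif TTTGAA was in 6 (15.4%) against 15.2%, and CCAAT was in 18 (46.2%) against 34.6%. Of the 26 members called higher that had a window, 12 held CCAAT. The windows of CHEK2, FANCF, MDC1 and MUS81, which were not called, held it too. A match is a description of letters and not a bound site, and sequence outside these windows was not searched. In the paper's ChIP-seq, introns and intergenic regions also held many of the FOXK2 peaks. XRCC3, the A-poor member with the steepest rise, had 5 matches to CCAAT in the 250 bases before its start (chr14:103715452-103715701, minus strand), printed with the matches of either strand in capitals.
XRCC3 promoter: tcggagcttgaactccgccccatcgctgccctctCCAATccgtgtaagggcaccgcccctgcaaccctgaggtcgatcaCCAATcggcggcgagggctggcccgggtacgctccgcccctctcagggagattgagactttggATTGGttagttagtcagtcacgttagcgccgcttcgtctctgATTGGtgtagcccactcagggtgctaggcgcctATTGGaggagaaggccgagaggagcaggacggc

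Other repair genes were less uniform. Of 43 further recombination and Fanconi genes that are not members, 21 rose and 2 fell, with a median log2 fold change of 0.76. CLSPN, the adaptor between ATR and CHEK1, had 252 and 126 counts in the controls and 2260 and 3688 in shFOXK2 (log2 fold change 4.23, edgeR adjusted P = 7.15e-07), and RAD51AP1, a recombination cofactor, rose 7.58-fold. The CLSPN and RAD51AP1 transcripts hold 30.08% and 33.0% A. The nuclease gene FAN1 fell to 0.432-fold (edgeR adjusted P = 0.00799) and WDR48, a cofactor of the FANCD2 deubiquitinase, to 0.558-fold (edgeR adjusted P = 0.0279). MRE11, the nuclease that forms a complex with RAD50 and NBN, chosen after its value was seen, rose by 1.74 on the log2 scale (edgeR adjusted P = 0.000736).

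Among 13 tested end-joining genes, 6 rose and 2 fell. RIF1, which acts with 53BP1 to block resection, went from 424 and 216 counts to 2877 and 4838 (log2 fold change 3.85, edgeR adjusted P = 1.13e-06), the opposite direction to TP53BP1. DCLRE1C, the Artemis nuclease, rose by 1.87 on the log2 scale (edgeR adjusted P = 0.000298), and the polymerase gene POLM fell (-0.75, edgeR adjusted P = 0.0384). The transcripts of RIF1 and DCLRE1C hold 32.98% and 32.97% A, and that of TP53BP1 28.44%. Among all tested genes with 32 to 34% A, 57.3% were called higher, with a median log2 fold change of 1.04. Of 7 mismatch repair genes, 3 rose, PMS1 (35.04% A) and MLH3 (30.91% A) the most, and PMS2 (27.72% A) fell to 0.303-fold (edgeR adjusted P = 0.00035). Of 27 genes of base and nucleotide excision repair, 4 rose and 1 fell, with a median log2 fold change of 0.20. With the A-content offset the counts were 12 higher and 2 lower for the excision repair genes (median 0.42), 1 and 1 for mismatch repair (median -0.15) and 4 and 1 for end joining (median 0.11), and 22 and 3 for the further recombination and Fanconi genes (median 0.63). Differences between the lists were not put to a test.

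Of 23 genes of S phase and proliferation, 14 rose and 9 were not called, with a median log2 fold change of 0.93 and a median A content of 26.3%, and with the A-content offset 17 rose. Replication factors, singled out after their values were seen, were divided. PCNA (0.22, edgeR adjusted P = 0.473), MCM2 (-0.04, 0.919), MCM5 (0.40, 0.216) and MCM6 (0.24, 0.52) were not called. MCM4 (1.66, edgeR adjusted P = 0.000119), MCM7 (1.06, 0.0029) and MCM3 (0.86, 0.0106) rose. TOP2A, the topoisomerase of G2 and mitosis, went from 4485 and 1908 counts to 29819 and 41370 (log2 fold change 3.77, edgeR adjusted P = 2.02e-06), and the cell cycle kinase CDK1 rose by 1.91 (edgeR adjusted P = 8.21e-05). The TOP2A and CDK1 transcripts hold 33.89% and 31.82% A. The p53 target CDKN1A, which encodes the cell cycle inhibitor p21, fell from 583 and 514 counts to 149 and 87 (log2 fold change -1.94, edgeR adjusted P = 0.000708). Of the 10 p53 targets, 2 rose, RRM2B (1.08) and GADD45A (0.80), and 2 fell, CDKN1A and BBC3 (-3.17, edgeR adjusted P = 2.47e-05). Over all tested genes, 25.7% were called higher and 22.7% lower. The share of cells in each cell cycle phase was not analysed here, and its part in the members' rise was not tested.

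**Figure D4:**
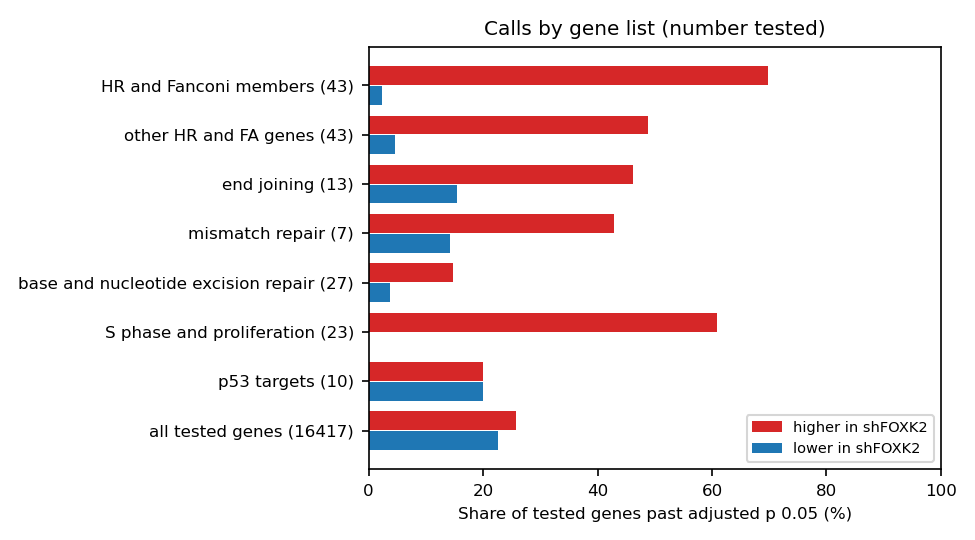
Bars give the share of tested genes in each list (%) called higher (red) or lower (blue) in shFOXK2 at an edgeR adjusted P below 0.05, with the number tested in parentheses. The recombination and Fanconi members reach 69.8% higher and 2.33% lower, against 25.7% and 22.7% of all tested genes.

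Markers of other cell types were given beside these results. Of 4 immune markers, PTPRC and CD3E had at most 3 counts in any library, LYZ at most 14, and CD14 fell from 389 and 358 counts to 124 and 168. Of 4 fibroblast markers, COL1A2 and DCN had at most 3 counts, COL1A1 was not called and PDGFRB fell from 127 and 87 counts to 2 and 8. Of 2 endothelial markers, PECAM1 fell from 154 and 90 counts to 9 and 29, and VWF had at most 7 counts in any library and was not tested. Of 3 mesothelial markers, CALB2 rose from 79 and 52 counts to 385 and 1252, MSLN rose by 1.11 on the log2 scale and UPK3B fell by 1.45. The lists thus did not move together, and their part in the members' values was not tested.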

How the data were processed

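RNA was poly(A)-selected, libraries were made with the NEBNext Ultra II kit and sequenced from a single end. Per the paper's methods and the labels, the authors aligned reads to hg38 with STAR 2.5.2 and deposited raw HTSeq counts per gene symbol for each library, not normalized. The annotation and strand setting of that counting are not given in the sources used here.

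The 4 tables were joined on 56655 symbols and grouped by their labels. Genes were filtered with filterByExpr, scaled by TMM and tested with edgeR 4.0.16 (quasi-likelihood F test, R 4.3.3) on all 4 libraries with group as the only term, after a test on simulated data. P values were adjusted over 16417 genes, with a threshold of 0.05, and the SE was taken as the absolute log2 fold change over √F. All 44 members matched GENCODE v44, from which canonical transcripts gave length, base composition and overlap. The A-content offset is a lowess trend (span 0.2) of each library on A content. Genes without a value for composition or length received no such offset. A count of 3 corresponds to 0.134 to 0.211 CPM, the limit a count of 0 allows, for counting error only.

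Every member may be named. Counts per library are given for called members with an absolute log2 fold change of at least 1, for BRCA1, BRCA2, PARP1 and RAD50. In other lists the 2 largest rises and falls past the threshold are named where the mean log2 CPM reached 3. MRE11, PCNA, BBC3 and the MCM genes were named outside this rule, after their values were seen. Members and lists were chosen with earlier results of these data known. Alternatives were DESeq2 1.42.0, its size factors, library size alone, other count filters, GC, A and length offsets, a replicate block, a test against 2-fold (glmTreat) and leaving out each library.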

Additional observations from a re-analysis of the deposited data

How the results depend on the processing

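The number of members called higher was 28 to 30 with any 1 library left out and 29 to 36 (beside 14% to 28.7% of all tested genes) under the other alternatives, apart from glmTreat, edgeR's test against a 2-fold change, which called 16 higher and 0 lower. At an unadjusted P below 0.05 glmTreat had 23 higher and 1 lower, and it called 12.5% of all tested genes higher and 8.1% lower. TP53BP1 was called lower under every other alternative. The members' median log2 fold change of 1.37 was 1.05 with the A-content offset, 1.06 with that offset and the replicate block, and between 1.10 (without shCtrl replicate 2) and 1.51 with 1 library left out. The cause was not tested.

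The labels do not say what same-numbered libraries share. Over the tested genes, their departures from the mean of their group correlated at -0.113. With 2 libraries a group and a trend with A content inside each group, this value cannot show whether they shared a batch. With the replicate block 30 members were called higher, FANCA being lost (adjusted P = 0.0558) and WRN called (adjusted P = 0.0246). The crossed pairing, added after seeing the data, called 34 higher and 1 lower.

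Signs changed for 6 members that were not called. FANCE, RAD51B, FANCC, SLX4 and PARP1 were called under no alternative, whereas PARP2, at 0.63, was called higher with a minimum of 10 counts and with the GC-content and length offsets. FANCE was -0.032 with DESeq2, -0.055 without a filter and between -0.204 and 0.216 with 1 library left out. RAD51B was -0.078 with DESeq2, -0.017 with DESeq2 size factors, -0.10 without a filter, -0.003 with the block, -0.06 with the length offset and between -0.116 and 0.053 with 1 library left out. FANCC was 0.29 and 0.30 with the A-content offset (without and with the block), 0.22 with either GC-content offset and 0.053 with the length offset. SLX4 was 0.15 and 0.16 with the A-content and 0.088 and 0.10 with the GC-content offset, PARP1 0.07 and 0.055 with the GC-content offset, and PARP2 -0.16 with either A-content offset. The cause was not tested. Low counts limit BRIP1, RAD54B and ATRIP most, and a lone library in a group was assumed to vary like the other group.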
